A study of Sus scrofa with 12 samples.

Results

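The m6A peaks annotated as exonic were described in primary porcine (Sus scrofa) granulosa cells kept in normoxia or hypoxia. N6-methyladenosine (m6A) is a methyl mark on adenosines of mRNA, and a peak is a stretch of transcript enriched by an antibody against the mark. The members are the rows of the deposited peak tables whose annotation reads exonic, a class kept apart there from 3′ UTR, 5′ UTR and exons of non-coding RNA. They made up 8305 of 25346 peaks in normoxia (32.8%), 8755 of 24444 in hypoxia (35.8%) and 317 of 1206 in the table of differential peaks (26.3%). They lay in 4969, 5030 and 305 genes. A peak that covers both coding and untranslated sequence carries a single annotation, so the class follows the study's own assignment.

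Granulosa cells are the somatic cells that surround the oocyte and answer follicle-stimulating hormone. Per the labels, the cells came from antral follicles of crossbred sows (Duroc × Yorkshire × Landrace) that were sexually mature, and were held for 12 h at 21% O2 (normoxia) or 1% O2 (hypoxia), each with 5% CO2. There were 3 biological replicates a condition, each with an input and an m6A-enriched (IP) library from the same fragmented poly(A) RNA, 12 libraries in all. The sources used here do not say whether replicates came from separate sows, so the p-values for RNA below measure the spread between these libraries, which may be technical. How the replicates entered the authors' p-values for peaks is not given either.

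Most m6A is written on nascent transcripts by a complex built around METTL3 and METTL14, with WTAP, VIRMA, ZC3H13, CBLL1 and RBM15 as partners that place it. FTO and ALKBH5 remove it, and proteins with a YTH domain bind it and direct the transcript to decay, translation or export. The mark is known to gather near stop codons and in long internal exons.

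The peak lists are 1 per condition, so no replicate values exist for single peaks and their counts, spans and sharing are descriptions without a test. A peak's enrichment is the authors' fold of IP over input, and its span runs from its first to its last base on the genome, introns included. RNA levels are FPKM (fragments corrected for the length of the transcript and the size of the library) in the 6 input libraries, which also served as the background of the peaks, so the RNA and m6A measures share libraries. RNA was compared with limma on log2(FPKM + 1), a scale that understates the change of low genes, and p-values were adjusted over all 10196 genes tested. The median log2 fold change of these was -0.26 as deposited and -0.01 after median-ratio scaling, an alternative that divides each library by its median ratio to the others. In bulk RNA, fewer cells of a type and less RNA per cell cannot be told apart.

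Across libraries, FPKM summed to between 294929 and 326804, and fragment counts, and so depth, are unknown. Hypoxia library 3 stood apart: its median FPKM was 0.937, against 1.40 to 1.69 in the other 5, and its log2 values correlated across genes at 0.951 and 0.974 with the other hypoxia libraries, which had 0.991 with each other. Of 13 granulosa markers, 10 reached a mean of 1 FPKM in normoxia and 8 in hypoxia, with sums of 321.5 to 379.6 and 242.8 to 402.1 FPKM, of which GJA1 had means of 243.1 and 208.4. Those below 1 in both conditions were AMH (means of 0.118 and 0.0542), CYP19A1 (0.233 and 0.119) and HSD17B1 (0.387 and 0.763). AMHR2 (2.72 and 0.784) and NR5A2 (1.90 and 0.878) were below 1 in hypoxia. Fibroblast and smooth muscle markers were also present (7 of 7, sums of 9116.5 to 11055.5 and 5608.7 to 6959.2 FPKM). Most of these sums came from ACTA2 (means of 7641.8 and 3477.4) and TAGLN (2311.4 and 2390.4), while PDGFRA had means of 4.33 and 8.50 and PDGFRB 9.21 and 16.2. Theca markers summed to at most 1.53 and leukocyte markers to at most 4.93 FPKM, with PTPRC under 0.1 in each library, and PECAM1 was the 1 endothelial marker of 4 in the table that reached 1 FPKM. The part of these other cells in the results was not tested.

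Exonic peaks were more numerous and shorter in hypoxia. The count went from 8305 to 8755, 3′ UTR peaks went from 11621 to 10688, and 5′ UTR peaks from 4337 to 3897. The median span of an exonic peak was 1200 bases in normoxia and 542 in hypoxia, with quartiles of 300 and 5228 against 181 and 3069. Peaks of at most 300 bases made up 25.0% of the class in normoxia and 36.5% in hypoxia, and peaks over 10000 bases 14.7% and 9.78%. The 3′ UTR class was shorter to begin with and shortened less, from 481 to 361 bases, and the 5′ UTR class went from 1054 to 683. Each class had the shorter median in hypoxia.

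**Figure D1:**
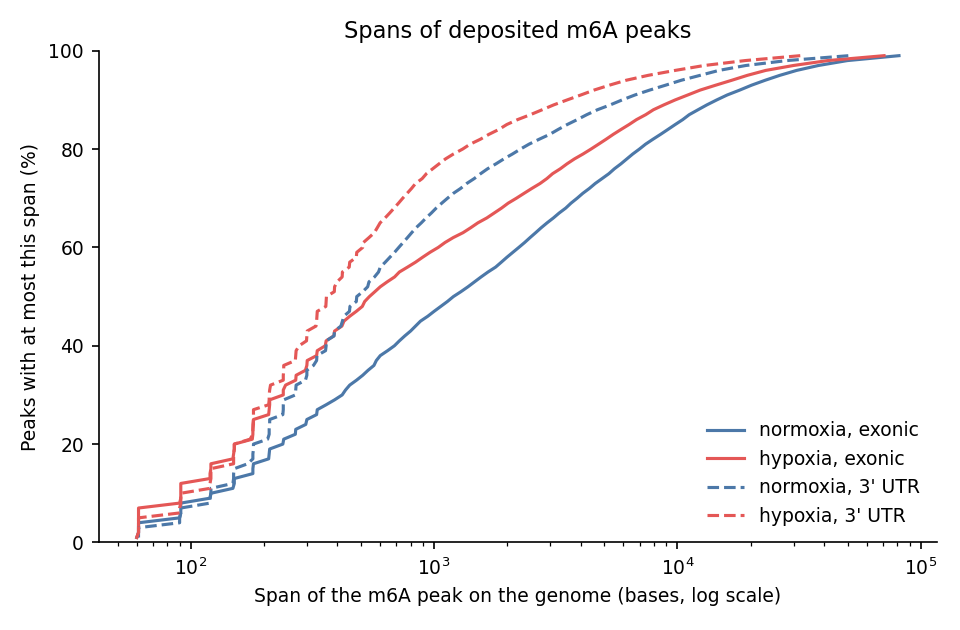
Share of m6A peaks (y axis, %) with at most the span on the x axis (bases, log scale), for exonic (solid) and 3′ UTR peaks (dashed) of the normoxia (blue) and hypoxia (red) lists. The hypoxia curves lie to the left: the exonic median is 542 bases in hypoxia and 1200 in normoxia. Steps on the left are spans in multiples of 30 bases.

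Short spans fell on a grid. Of exonic peaks of at most 300 bases, 89.7% in normoxia and 93.0% in hypoxia had a span within 1 base of a multiple of 30, against 10.2% and 8.18% of those over 10000 bases. The grid limits how finely a short peak is placed. The longest exonic peaks in both lists belonged to DLG2, a synaptic scaffold gene, with spans of 1303509 and 1372067 bases (chromosome 9, 18242408 to 19545916 in normoxia). DLG2 RNA was listed at 0.439, 0.422 and 0.647 FPKM in normoxia and 0.0764, 0.162 and 0.0879 in hypoxia, so its peak stands on little RNA, and such a span includes introns. Along the annotated gene, from its start at 0 to its end at 1, the middle of an exonic peak lay at a median of 0.646 in normoxia and 0.658 in hypoxia. The 3′ UTR peaks lay at 0.948 and 0.954 and the 5′ UTR peaks at 0.0861 and 0.0748.

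Exonic peaks were the least enriched of the 4 annotated classes. Their median enrichment was 3.44-fold in normoxia and 4.27-fold in hypoxia, against 4.45 and 5.04 for 3′ UTR peaks and 4.23 and 5.15 for 5′ UTR peaks. The authors' adjusted p-value was under 0.05 for 7224 normoxia exonic peaks (87.0%, against 86.9% of that whole list) and for 7854 hypoxia ones (89.7%, against 86.8%). The least significant listed exonic peaks had an adjusted p of 0.489 and 0.532. Enrichment and span did not run together: in normoxia the median was 2.56-fold up to 300 bases, 4.76-fold above that and up to 1000, 3.27-fold up to 10000 and 3.97-fold for longer peaks.

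Exonic peaks with the lowest p-values recurred between conditions: of the 6 genes picked in each list, 5 were shared. The authors' p was listed as 0 for 100 exonic peaks in normoxia and 116 in hypoxia, so the 6 were picked among these by enrichment. CENPB, an intronless gene for a protein that binds centromeric DNA, had a 1761-base peak over nearly its whole length (chromosome 17, 31929952 to 31931712), enriched 200-fold in normoxia and 230-fold in hypoxia. DHX9, which encodes an RNA helicase, had a peak enriched 146-fold in normoxia (chromosome 9, 124180414 to 124183347) and 165-fold in hypoxia, where it kept the same end but began at 124182690 and spanned 658 bases in place of 2934. RING1, a subunit of the Polycomb ubiquitin ligase, went from 133-fold to 49.8-fold over 2254 bases in each list. This RING1 peak is not among the authors' differential peaks. PRRC2A, itself described as a binder of m6A, had 79.0-fold and 65.2-fold peaks (chromosome 7, 23749358 to 23751708 in normoxia), and the nucleolar RNA methyltransferase gene FBL 35.6-fold and 29.7-fold. The homeobox gene IRX3 (30.9 and 27.1) and the gene of the PBX-interacting protein PBXIP1 (27.7 and 34.2) complete the genes whose best exonic peak had the lowest p-value in either list; a p listed as 0 was ordered by enrichment. These enrichments carry no replicate error.

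In input RNA, 3 of these 7 genes passed the test, IRX3 higher and CENPB and FBL lower, where 5.40% of all genes tested were higher and 21.1% lower. CENPB had 40.8, 48.0 and 45.1 FPKM in normoxia and 27.0, 25.6 and 30.1 in hypoxia. The conditions did not overlap, and the log2 fold change was -0.68 (SE 0.140, limma adjusted p = 0.0122), but it was -0.36 after median-ratio scaling (adjusted p = 0.208) and did not pass without hypoxia library 1 (0.0619) or normoxia library 2 (0.0790) or 3 (0.0644). FBL had 22.8, 22.02 and 21.2 FPKM in normoxia and 12.3, 10.7 and 11.2 in hypoxia, again without overlap, and fell by 0.89 (SE 0.135, limma adjusted p = 0.00393, 0.0369 after scaling). IRX3 had 5.08, 7.34 and 7.67 FPKM in normoxia and 12.9, 12.0 and 14.9 in hypoxia. Each hypoxia value was above each normoxia value, a rise of 0.90 (SE 0.188, limma adjusted p = 0.0132, 0.0586 without hypoxia library 1 and 0.0531 without normoxia library 2). In m6A, the IRX3 peak had a log2 difference of -0.43 in the authors' deposited table of differential peaks (adjusted p = 0.000234), opposite in sign to its RNA. DHX9 (64.2, 56.5 and 51.2 against 38.9, 50.5 and 20.5 FPKM), RING1, PRRC2A and PBXIP1 did not pass (limma adjusted p = 0.141, 0.320, 0.503 and 0.651).

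Most genes held a single exonic peak, and a small set held many. In normoxia 3132 of 4969 genes (63.0%) had 1 exonic peak and 177 had at least 5, and in hypoxia 3075 of 5030 (61.1%) had 1 and 197 at least 5. The transcription factor gene ZFHX3 led in normoxia with 16 (15 in hypoxia), and the protocadherin gene FAT4 in hypoxia with 17 (11 in normoxia). AKAP9, a centrosomal and Golgi scaffold, had 15 and 16, the nuclear envelope protein gene SYNE2 13 and 16, and the ciliary gene ALMS1 13 and 11. The cytoskeletal linker gene DST went from 14 to 9 and the centrosomal gene CEP350 from 14 to 3. CEP350 RNA was listed at 1.00, 1.33 and 0.866 FPKM in normoxia and at 1.36, 3.39 and 0.398 in hypoxia, so the 2 extreme values were both from hypoxia and the test did not pass (limma adjusted p = 0.693), although it did without hypoxia library 3 (0.0433).

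Genes with more exonic peaks were longer and lower in RNA. Counted by the higher of both lists, genes with 1 exonic peak had a median genomic length of 28598 bases and those with at least 5 had 93871, against 18022.5 for genes with peaks of other classes alone. Median FPKM in normoxia libraries 1, 2 and 3 was 3.96, 3.91 and 3.56 for genes with 1 exonic peak and 1.57, 1.63 and 1.36 for genes with 5 or more. Hypoxia library 3 moved with the same order. Among genes with at least 1 FPKM in the other 5 libraries, the median ratio of hypoxia library 3 to the mean of hypoxia libraries 1 and 2 was 0.9502 in genes with peaks of other classes alone, 0.760 with 1 exonic peak, 0.658 with 2, 0.568 with 3 to 4 and 0.499 with 5 or more. Hypoxia libraries 1 and 2 moved in this order too. Their median ratio to normoxia was 0.833 in genes with peaks of other classes alone, then 0.883, 0.944, 0.985 and 1.09 with more exonic peaks. The part of hypoxia library 3 in the exonic peaks of hypoxia was not tested, since the deposited lists hold no values per IP library.

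Exonic peaks were most frequent in genes of low to middle RNA level. Among the 18060 genes with FPKM, the share with an exonic peak in normoxia was 1.69% under 0.1 FPKM, 36.7% from 0.1 to 1, 42.8% from 1 to 5, 36.1% from 5 to 20, 27.1% from 20 to 100 and 21.6% at 100 and over. Hypoxia gave nearly the same series, from 2.35% under 0.1 FPKM to 41.9% from 1 to 5 and 19.8% at 100 and over. The exonic share of all peaks was lowest under 0.1 FPKM, at 12.99% in normoxia and 18.02% in hypoxia. From 0.1 FPKM upward it was lower at higher RNA level, from 43.4% at 0.1 to 1 FPKM to 21.2% at 100 and over in normoxia, and from 44.9% to 21.3% in hypoxia. Median enrichment was lower at higher RNA level over the whole range, from 7.91-fold in the lowest class to 1.98-fold in the highest in normoxia and from 8.25 to 2.36 in hypoxia. In the lowest class the share of peaks with an adjusted p under 0.05 was 44.4% and 47.4%, and in the highest 99.2% and 98.0%. Low genes thus carried the high folds with the weaker p-values.

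**Figure D2:**
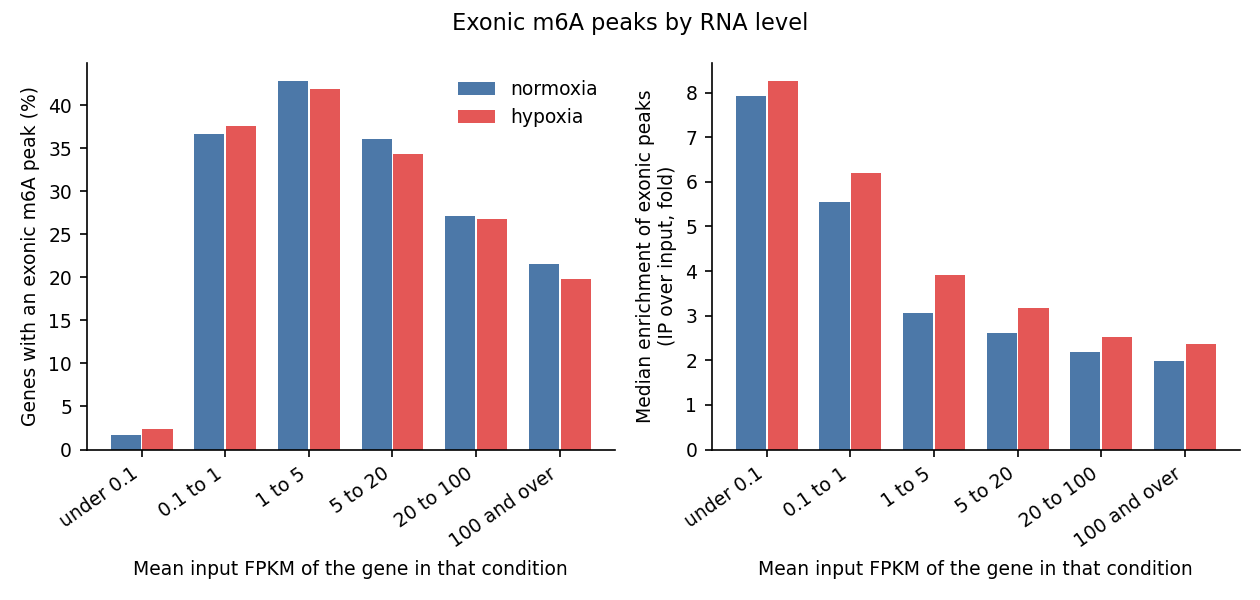
Share of genes with an exonic m6A peak (left, %) and median enrichment of the exonic peaks (right, fold of IP over input) by the mean input FPKM of the gene in the same condition (blue normoxia, red hypoxia). The share is highest from 1 to 5 FPKM, at 42.8% and 41.9%, and the enrichment falls from left to right.

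Most exonic peaks had a counterpart in the other condition. With a shared base as the criterion, 5242 of 8305 normoxia exonic peaks (63.1%) overlapped a hypoxia exonic peak and 5884 of 8755 hypoxia peaks (67.2%) a normoxia one. The same shares were 73.2% and 83.3% for 3′ UTR peaks and 61.0% and 70.0% for 5′ UTR peaks. When at least 50% of each peak had to be covered, the shares were 33.9% and 32.2%, with 2819 peaks of each list. The lists were called separately, so a missing counterpart may still be a peak below the authors' threshold.

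A change of annotation at a shared place was more frequent among hypoxia than among normoxia exonic peaks. Counting a counterpart of any annotation raised the share to 68.5% of normoxia exonic peaks and to 85.9% of hypoxia ones. In normoxia 448 exonic peaks (5.39%) overlapped hypoxia peaks of other classes alone, fewer than overlapped nothing. In hypoxia 1636 exonic peaks (18.7%) overlapped normoxia peaks of other classes alone, 1062 of them on 3′ UTR and 595 on 5′ UTR peaks, some on both. The hypoxia peaks of this kind had a median span of 361 bases and the 1340 normoxia UTR peaks beneath them 3972.5 bases. Such hypoxia exonic peaks were mostly short and overlapped wider normoxia peaks annotated by a UTR.

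Splitting within the exonic class ran the same way. Of the normoxia exonic peaks with an exonic counterpart, 824 (15.7%) overlapped at least 2 hypoxia exonic peaks, against 394 (6.70%) in the reverse direction. The normoxia peak with the most counterparts was one of 22757 bases in the Golgi gene GOLGB1 (chromosome 13, 138804433 to 138827189), which overlapped 10 hypoxia exonic peaks; a 49020-base peak of AHNAK overlapped 7, and those of the chromatin reader gene BPTF, of BOD1L1 and of THAP12 6 each. In 3810 pairs that matched one-to-one, hypoxia had the narrower peak in 2439 (64.0%) and the wider in 1092 (28.7%), with medians of 903 and 1645 bases in hypoxia and normoxia. Enrichment was higher in hypoxia in 2216 of these pairs (58.2%). The YTH-domain reader gene YTHDF2 is a small case, with a 4258-base exonic peak in normoxia (7.13-fold) and peaks of 391 and 3688 bases in hypoxia (5.57- and 7.51-fold) between the same outer limits on chromosome 6 (85722216 to 85726473).

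Peaks without any counterpart were weaker. In normoxia 2615 exonic peaks (31.5%) overlapped nothing in the hypoxia list, and their median enrichment was 2.34-fold against 4.195-fold for those with an exonic counterpart, with an adjusted p under 0.05 in 73.9% against 93.5%. In hypoxia 1235 exonic peaks (14.1%) overlapped nothing, with 3.53-fold against 4.36-fold and 62.3% against 94.5%. Their genes had a median of 2.02 and 1.07 FPKM, below the 3.10 and 2.59 of the shared peaks. By gene, 3735 had an exonic peak in both lists, 1234 in normoxia alone and 1295 in hypoxia alone. Of the 1234, 741 had a peak of another class in hypoxia and 493 had none, and of the 1295, 1051 had another class in normoxia and 244 none. A gene that gained or lost its exonic class had thus mostly kept a peak.

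The m6A machinery carried exonic peaks itself. Each of the 9 writer genes had an exonic peak in at least 1 condition, against 45.0% of the 10431 genes with at least 1 FPKM in either condition. Together they held 14 exonic and 14 other peaks in normoxia (50% exonic, against 32.8% of all peaks). In hypoxia they held 21 exonic and 6 other peaks (77.8%, against 35.8%). The part of a change of annotation in this was not tested. VIRMA, the scaffold of the complex, had 4 and 5 exonic peaks, RBM15 3 and 5, and ZC3H13 3 in each. RBM15B had an exonic peak over the whole gene (2682 bases, chromosome 13, 33664472 to 33667153), 7.02-fold in normoxia and 12.4-fold in hypoxia, and METTL3 peaks of 269 bases (2.24-fold) and 1406 bases (2.72-fold) with the same start. No writer gene had a differential exonic peak, and in RNA 0 of the 8 tested passed limma (1, METTL3, at an unadjusted p of 0.0294, and 0 after scaling). Of all genes tested, 5.40% were higher and 21.1% lower, and 7.73% and 8.81% after scaling. Without hypoxia library 3, VIRMA passed (adjusted p = 0.00495, against 0.539 with that library); its RNA was 7.90, 6.76 and 5.58 FPKM in normoxia and 10.4, 14.7 and 4.39 in hypoxia.

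Erasers and readers differed from gene to gene. The demethylase gene ALKBH5 had no exonic peak in normoxia and 2 in hypoxia (60 bases at 1.54-fold and 449 bases at 9.28-fold), of which the longer overlapped a normoxia peak annotated as 5′ UTR. Its RNA was 9.43, 10.9 and 10.2 FPKM in normoxia and 16.04, 16.19 and 17.95 in hypoxia, without overlap, a rise of 0.67 (SE 0.139, limma adjusted p = 0.0125) that did not pass without hypoxia library 1 (0.0555) or normoxia library 1 (0.0626), 2 (0.0568) or 3 (0.0642). The other demethylase gene, FTO, had an exonic peak in both lists (3.90- and 5.04-fold). FTO RNA was 17.95, 18.89 and 20.25 FPKM in normoxia and 12.3, 11.9 and 15.2 in hypoxia, a fall of 0.51 (SE 0.152, limma adjusted p = 0.0457) whose call was lost after scaling (0.532), with no filter (0.0588) and without any 1 library other than hypoxia library 3 (0.0949 to 0.174). Of 11 reader genes 7 had an exonic peak. YTHDF3 had 2 in hypoxia and 0 in normoxia, and both lay inside a normoxia peak annotated as 3′ UTR. FMR1 had 2 in normoxia and no peak of any class in hypoxia, and the RNA of neither gene passed (limma adjusted p = 0.819 and 0.434). YTHDF1 had a 4871-base exonic peak in each list, 6.26-fold in normoxia and 4.12-fold in hypoxia, and a log2 difference of -0.35 in the authors' deposited table of differential peaks (adjusted p = 0.0832). Of the 10 readers tested in RNA, 1 was higher and 1 lower, against 5.40% and 21.1% of all genes tested. ELAVL1, whose exonic peak of normoxia was met in hypoxia by a 3′ UTR peak, fell by 0.92 (limma adjusted p = 0.0236, 0.0701 after scaling, and 0.0612 to 0.102 without hypoxia library 1 or a normoxia library). IGF2BP2, with peaks of other classes alone, rose by 0.85 (limma adjusted p = 0.0100, 0.00478 after scaling, and 0.0553 to 0.0590 without a normoxia library). IGF2BP2 reached 1 FPKM in the 3 hypoxia libraries alone. It thus entered the test through the group where it is high, and it was not tested without any 1 of these libraries.

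Genes for chromatin regulators, zinc finger and homeobox regulators and large structural proteins held many exonic peaks. All 31 listed chromatin and transcription regulators in the expression table had an exonic peak, with 121 exonic and 44 other peaks in normoxia and 117 and 53 in hypoxia. Among them the histone methyltransferase genes KMT2C and KMT2A had 11 and 9 exonic peaks in normoxia and 12 and 9 in hypoxia, and the remodeler gene CHD7 10 in each. Of these 31 genes 4 were lower and 0 higher in RNA (0 lower and 2 higher after scaling), against 21.1% lower and 5.40% higher of all genes tested. All 22 listed cytoskeletal and other giant proteins (90 and 78 exonic peaks) and 23 of 27 zinc finger and homeobox regulators (90 and 93) also had an exonic peak. These lists were put together with earlier results of these data known and hold long genes, so their high counts are descriptions.

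The hypoxia and steroid programs stood closer to the background or below it. Of 23 glycolysis genes 7 had an exonic peak (30.4%), of 34 other HIF-responsive genes 13 (38.2%) and of 23 genes of steroid and cholesterol synthesis 6 (26.1%), against 45.0% of genes with at least 1 FPKM. HK2, which phosphorylates glucose, kept an exonic peak (2.88- and 3.84-fold) with a mean of 6.36 FPKM in normoxia and 36.7 in hypoxia. EGLN1, the oxygen sensor that marks HIF for decay, had 2 exonic peaks in each list, the best at 31.7-fold in normoxia and 9.79-fold in hypoxia. The mitophagy receptor gene BNIP3, at 35.8 and 899 FPKM, had an exonic peak in normoxia (8.46-fold) and none in hypoxia. HIF1A, which encodes the oxygen-regulated HIF subunit, likewise had its exonic peak (2.62-fold) in normoxia alone, with mean levels of 59.9 and 25.4 FPKM.

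Among 38 granulosa identity and hormone signalling genes 17 had an exonic peak (44.7%). GATA6, a transcription factor of granulosa cells, had 2.79-fold and 6.11-fold over 240 and 270 bases. LHCGR, the receptor of luteinizing hormone, had 2 exonic peaks in normoxia (the better at 11.6-fold) and none in hypoxia. Its RNA was 0.622, 0.514 and 0.421 FPKM in normoxia and 0.0831, 0.111 and a listed 0 in hypoxia, too low to be tested. INHBB, a subunit of inhibin B, had its exonic peak in hypoxia alone (239 bases, 3.52-fold), at a place where a normoxia peak was annotated as 5′ UTR; INHBB RNA was 14.9, 17.2 and 17.2 FPKM in normoxia and 29.4, 32.9 and 32.1 in hypoxia, a rise of 0.90 (SE 0.139, limma adjusted p = 0.00429). FSHR, the receptor of follicle-stimulating hormone, had an exonic peak of 4943 bases in normoxia and 449 in hypoxia (chromosome 3, 91768965 to 91773907 in normoxia), with a log2 difference of -0.55 in the authors' deposited table (adjusted p = 0.0417). FSHR RNA was 9.89, 8.98 and 10.3 FPKM in normoxia and 5.31, 5.80 and 5.44 in hypoxia (-0.72 on the log2 scale, SE 0.141, limma adjusted p = 0.0101). That call did not hold after scaling (0.104) or without hypoxia library 1 (0.0579) or normoxia library 1 (0.0512) or 3 (0.0621).

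Differential exonic peaks went both ways. Of the 317 rows in the authors' deposited table, 169 were higher in hypoxia (53.3%, against 43.0% of all rows) and 148 lower (46.7%, against 57.0%). The same table has 32.7% higher among 3′ UTR rows and 56.2% among 5′ UTR rows. At the authors' adjusted p under 0.05, the deposited table of the authors holds 72 higher exonic rows (22.7% of the exonic rows, against 18.6% of all rows) and 35 lower (11.0%, against 16.7%). Of the called rows in the authors' deposited table, 67.3% were higher among exonic rows and 52.6% among all rows. At least a 2-fold difference was listed there for 28 higher and 17 lower rows. The median log2 difference in the authors' deposited table was 0.51 among higher and -0.55 among lower exonic rows, with extremes of 4.49 and -3.51. Of the 169 higher rows 136 overlapped a peak in both lists and 33 in the hypoxia list alone, and of the 148 lower rows 111 in both and 37 in the normoxia list alone.

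Among higher exonic peaks, EPAS1 combined more m6A with less RNA. EPAS1 encodes HIF-2 alpha, the second oxygen-regulated subunit of the HIF family. It had no exonic peak in normoxia and a 7320-base peak in hypoxia (chromosome 3, 94175719 to 94183038, 3.46-fold), and the authors' deposited table lists a log2 difference of 1.47 (adjusted p = 1.58e-17). Its 3′ UTR held 2 peaks in normoxia and 1 in hypoxia, with none in the differential table. EPAS1 RNA was 25.8, 30.7 and 38.6 FPKM in normoxia and 7.94, 7.96 and 13.2 in hypoxia. The highest hypoxia value, from library 3, lay below the lowest normoxia value, and RNA fell by 1.63 (SE 0.242, limma adjusted p = 0.00408, 0.0205 after scaling and 1.55e-05 without hypoxia library 3).

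PRMT5 had the same pair of directions as EPAS1. PRMT5, an arginine methyltransferase, had 0.75 in the authors' deposited table (adjusted p = 0.00186, 240 bases, chromosome 7, 76120873 to 76121112), where an exonic peak stood in normoxia and a 3′ UTR peak in hypoxia. PRMT5 RNA was 10.01, 10.7 and 10.3 FPKM in normoxia and 3.21, 4.13 and 3.27 in hypoxia and fell by 1.33 (SE 0.153, limma adjusted p = 0.00151). Each hypoxia library lay below each normoxia library.

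The other named higher peaks came without a called change in RNA. RCAN1, an inhibitor of calcineurin, had 1.03 in the authors' deposited table, the apoptosis inhibitor gene AVEN 0.84, the exonuclease gene DIS3L2 0.80 and the calcium channel gene CACNA1H 0.79 (adjusted p = 0.04898, 0.0166, 0.000138 and 0.0302). RCAN1 RNA was 8.78, 8.09 and 7.46 FPKM in normoxia and 13.5, 13.9 and 7.802 in hypoxia (limma adjusted p = 0.205). It passed without hypoxia library 3, whose value lay inside the normoxia range, and after scaling (0.00269 and 0.0431). The RNA of AVEN, DIS3L2 and CACNA1H did not pass (0.593, 0.0615 and 0.748), although DIS3L2 passed without hypoxia library 3 (0.0129).

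Among lower exonic peaks, LRRC8D and DDX54 lost RNA as well. LRRC8D encodes a subunit of the volume-regulated anion channel. Its 870-base normoxia exonic peak (chromosome 4, 126768667 to 126769536, 3.53-fold) was met in hypoxia by peaks of 270 and 121 bases (2.02- and 1.80-fold), and the authors' deposited table lists a log2 difference of -0.84 (adjusted p = 0.000245), beside -0.71 for the 3′ UTR peak of the gene. LRRC8D RNA was 10.5, 10.9 and 10.9 FPKM in normoxia and 2.43, 2.63 and 2.06 in hypoxia, a fall of 1.81 (SE 0.149, limma adjusted p = 0.000514). The RNA helicase gene DDX54 had -0.99 in the authors' deposited table (adjusted p = 0.0245, chromosome 14, 38665261 to 38667727), with RNA of 15.3, 18.8 and 16.2 FPKM in normoxia and 6.19, 5.78 and 8.21 in hypoxia (-1.21 on the log2 scale, SE 0.175, limma adjusted p = 0.00347). In both genes each hypoxia library was below each normoxia library.

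The remaining named lower peaks were of mixed RNA behaviour. The mRNA export factor gene NXF1 (-0.73, adjusted p = 0.00513) and SLC4A1AP (-0.94, adjusted p = 0.0132) are exonic rows of the authors' deposited table that overlap 5′ UTR peaks, NXF1 in both lists and SLC4A1AP in the normoxia list. The semaphorin receptor gene PLXNA1 had -0.72 in the authors' deposited table (adjusted p = 0.000141) and 2 exonic peaks in normoxia but 0 in hypoxia. NXF1 RNA was 11.7, 10.2 and 11.3 FPKM in normoxia and 5.92, 6.60 and 5.47 in hypoxia and fell by 0.79 (limma adjusted p = 0.00859), but did not pass after scaling (0.0624) or without normoxia library 3 (0.0513). PLXNA1 RNA was 19.2, 22.4 and 24.6 against 9.05, 11.2 and 13.5 FPKM (-0.92, limma adjusted p = 0.0115). Its call was lost after scaling (0.108) and without hypoxia library 1 (0.0537) or normoxia library 2 (0.0651) or 3 (0.0606). GAREM1, an adaptor of growth factor signalling, and NCDN, which encodes neurochondrin, had -0.73 and -0.71 in the authors' deposited table (adjusted p = 0.0138 and 0.0170), and their RNA did not pass (limma adjusted p = 0.651 and 0.295), although NCDN passed without hypoxia library 3 (0.0268).

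Opposite exonic peaks within a gene were listed for IRS2, KIF7, KMT2B, MYO18A and RNF214. IRS2, an insulin receptor substrate, is drawn on the map of peaks, with 5 exonic peaks in normoxia and 7 in hypoxia inside its first 3 kb. The authors' deposited table lists -0.77 at 76652563 to 76653132 of chromosome 11 (adjusted p = 0.0263) and 1.55 at 76651725 to 76651994 (adjusted p = 0.266), 570 and 270 bases long. IRS2 RNA was 4.03, 4.55 and 3.31 FPKM in normoxia and 2.52, 2.95 and 1.88 in hypoxia and did not pass (limma adjusted p = 0.0852). KMT2B, a histone methyltransferase gene, had -0.70 (adjusted p = 0.0229) in the 3′ part of the gene and 0.43 (adjusted p = 0.129) at its start in the authors' deposited table. In MYO18A and RNF214 the higher peak was the one under 0.05 (adjusted p = 9.55e-05 and 0.00479), and in KIF7 neither, in the same authors' deposited table.

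**Figure D3:**
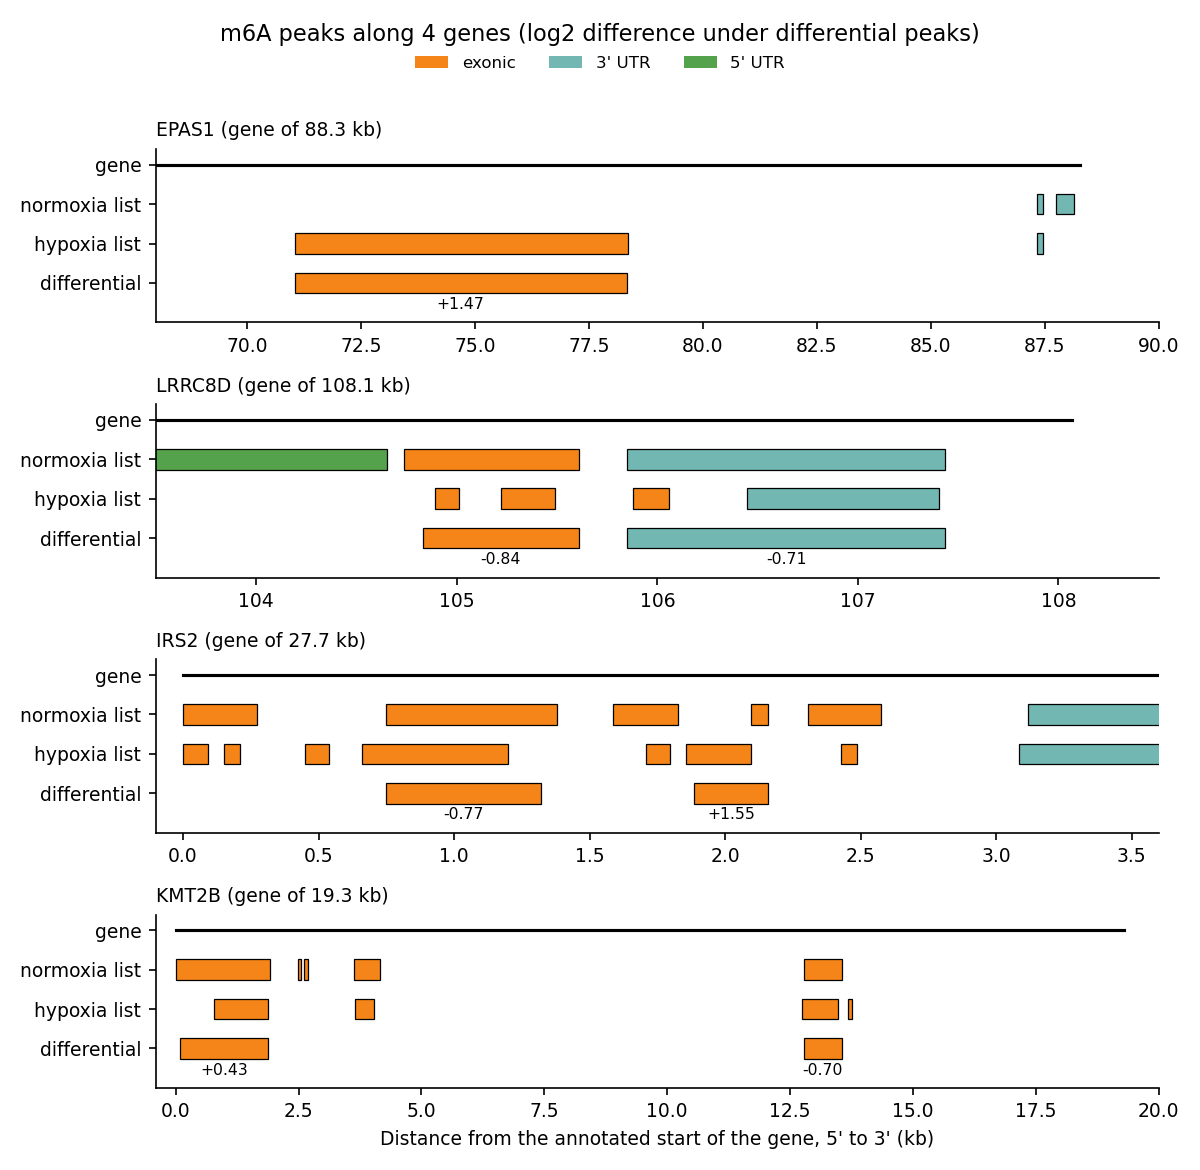
Peaks of the normoxia list, the hypoxia list and the authors' differential table along EPAS1, LRRC8D, IRS2 and KMT2B, by distance from the annotated start of the gene (x axis, kb; the part of the gene with exonic peaks is shown), coloured by annotation. Numbers are the authors' log2 differences, from -0.84 for LRRC8D to 1.55 for IRS2; bars cover introns too.

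The RNA of genes with a differential exonic peak was more often lower than higher in hypoxia. Of 264 such genes tested, 15 were higher in hypoxia (5.68%, against 5.40% of all genes tested) and 96 lower (36.4%, against 21.1%), with a median log2 fold change of -0.39 against -0.26. After median-ratio scaling 21 were higher and 30 lower (7.73% and 8.81% of all genes), with a median of -0.12 against -0.01. Without hypoxia library 3 the counts were 21 and 120 (9.93% and 31.6% of all genes). The share of lower genes was above that of all genes in each of these fits. Among genes with FPKM, tested or not, 89.0% of the 300 with a differential exonic peak had 1 FPKM or more in normoxia, against 55.5% of all 18060. The RNA levels of the tested genes alone were not compared. By direction of m6A, the 169 higher rows held 11 with higher and 49 with lower RNA, 91 that did not pass and 18 untested, and the 148 lower rows held 4, 49, 71 and 24.

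The largest RNA changes in this set were found with m6A of either sign. The aspartate aminotransferase gene GOT1 had 26.3, 25.0 and 25.8 FPKM in normoxia and 5.78, 5.91 and 4.15 in hypoxia (-2.10 on the log2 scale, SE 0.165, limma adjusted p = 0.000434). The exonic peak of 9673 bases (4.47-fold) of GOT1 was in the normoxia list alone, and the authors' deposited table gives -0.83 (adjusted p = 0.278). SPHK1, which makes sphingosine 1-phosphate, had an RNA change of -1.99 and an m6A value of -0.76 in the authors' deposited table (adjusted p = 0.185), and the N-terminal methyltransferase gene NTMT1 -1.70 and -0.34 (adjusted p = 0.127). P4HA1, which encodes a collagen prolyl hydroxylase, rose most, from 18.1, 17.6 and 15.9 FPKM to 94.8, 109.5 and 71.4 (log2 fold change 2.33, SE 0.184, limma adjusted p = 0.000461). P4HA1 went from 1 exonic peak, with a log2 enrichment of 0.59, to 3, with weak log2 enrichments of 0.44, 0.73 and 0.25. The peak at 0.73 overlapped the normoxia one. The authors' deposited table lists a log2 difference of 0.29 (adjusted p = 0.00479) at 75870472 to 75878099 of chromosome 14. CSPG5, a brain proteoglycan gene, and KDM5B, a histone demethylase gene, rose by 1.70 and 1.11, GTPBP2 by 1.06 and TCAF1 by 0.99 (limma adjusted p = 0.00190, 0.00170, 0.00359 and 0.00457). Their m6A values in the authors' deposited table were 0.89, 0.24, 0.23 and -0.22, of which that of TCAF1 had an adjusted p under 0.05 (0.04898).

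**Figure D4:**
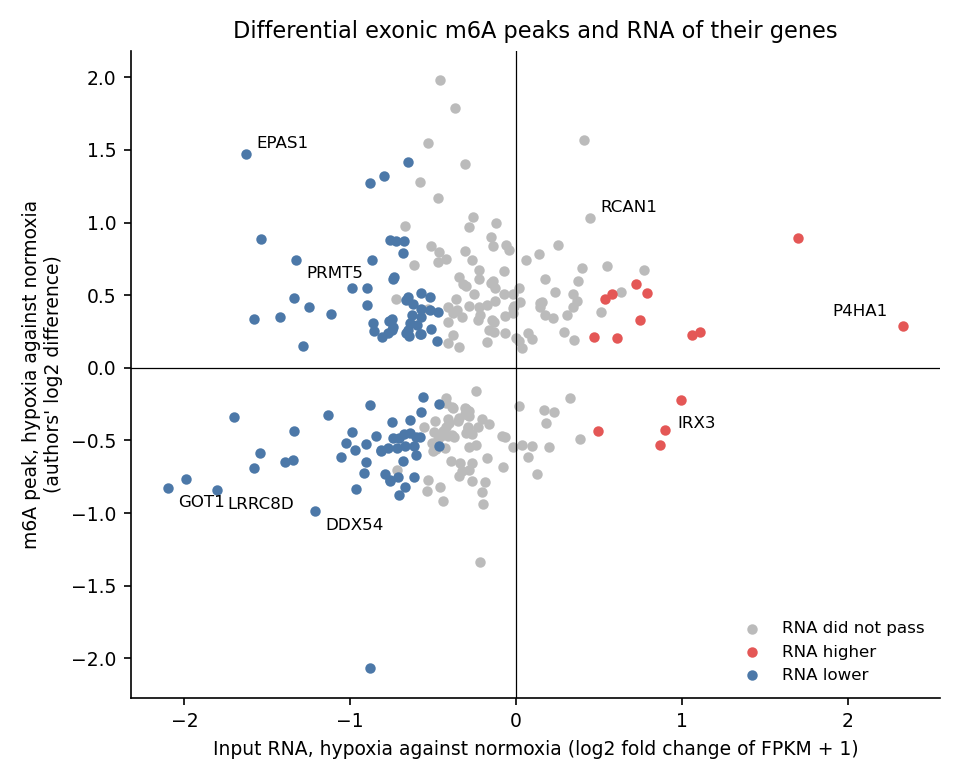
Authors' log2 difference of each differential exonic peak (y axis) against the log2 fold change of input RNA of its gene (x axis, FPKM + 1), for rows whose gene was tested; blue, RNA lower, red, RNA higher, grey, not passed in limma. Points of lower RNA lie above and below 0 in m6A, 49 on each side of 0, with EPAS1 at 1.47 and LRRC8D at -0.84.

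**Figure D5:**
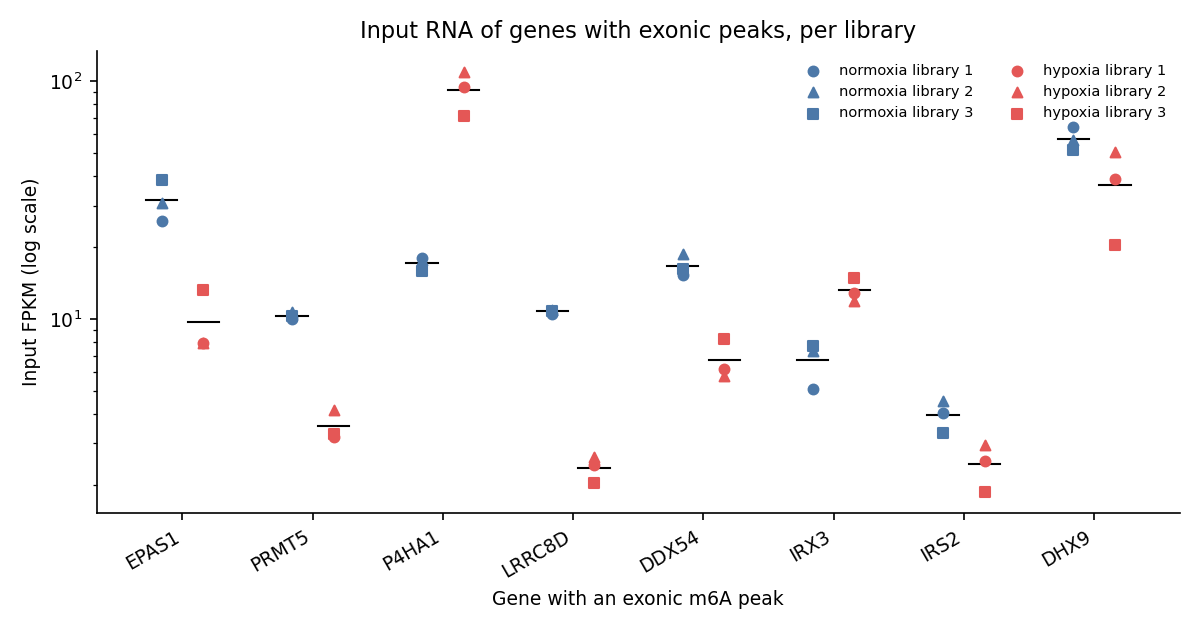
Input FPKM (log scale) in each of the 6 input libraries for 8 genes with exonic peaks; symbols mark library 1, 2 and 3 and black bars the mean of a condition. EPAS1, PRMT5, LRRC8D and DDX54 are lower and P4HA1 and IRX3 higher in each hypoxia library.

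Members of the gene lists with a called differential exonic peak included SMARCA4, MED12, KMT2B, SPTAN1, P4HA1, EPAS1, PARP1, FSHR and IRS2. In the authors' deposited table the Mediator gene MED12 had 0.61 (adjusted p = 0.0309), the DNA repair gene PARP1 0.43 (0.0324), the spectrin gene SPTAN1 0.36 (0.000372) and the remodeler gene SMARCA4 0.28 (7.59e-06). PARP1 RNA was 24.6, 26.1 and 21.5 FPKM in normoxia and 11.6, 13.6 and 12.1 in hypoxia, a fall of 0.90 (limma adjusted p = 0.00541, 0.0393 after scaling). SMARCA4 RNA was 35.9, 40.9 and 39.5 FPKM in normoxia and 20.9, 22.2 and 25.4 in hypoxia, a fall of 0.74 (limma adjusted p = 0.00949), whose call was lost after scaling (0.152) and without hypoxia library 1 (0.0543) or normoxia library 2 (0.0638) or 3 (0.0549). MED12 and SPTAN1 did not pass in RNA (limma adjusted p = 0.428 and 0.382).

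Genes with any exonic peak changed in RNA about as often as all genes. Of 4570 tested, 209 were higher (4.57%, against 5.40%) and 903 lower (19.8%, against 21.1%), with a median of -0.25 against -0.26. After scaling, 323 of the 4570 were higher and 373 lower, against 7.73% and 8.81% of all genes tested. Without hypoxia library 3, 491 of 4498 tested were higher and 1265 lower, against 9.93% and 31.6% of all genes tested. Genes with peaks of other classes alone had 262 higher (5.91%) and 1002 lower (22.6%) of 4433. By number of exonic peaks the lower share went from 22.4% of genes with 1 to 8.62% of genes with at least 5. Hypoxia library 3 departs from the other libraries of its group in the same order. Hypoxia libraries 1 and 2 also follow this order against normoxia, with median ratios of 0.883 with 1 exonic peak and 1.09 with 5 or more. The part of these libraries in the lower share was not tested.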

How the data were processed

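MeRIP-seq input and IP libraries of 3 normoxia and 3 hypoxia replicates were compared. Per the submitters' processing notes, the tools included HISAT2 2.0.4, HOMER 4.10, edgeR 4.1, StringTie 2.1.2 and fastp 0.19.4, and the build is Sscrofa11.1. The peak caller and the tool behind each table remain not given in the sources used here. FPKM per gene and input library were deposited by the authors, per the file headers. The authors' deposited peak tables give a log2 enrichment or log2 difference, a p-value and an adjusted p-value per peak.

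Starts in the deposited tables count from 0, and coordinates here count from 1. In the differential table a positive value was read as higher in hypoxia, since 33 positive exonic rows overlapped the hypoxia list alone and 0 the normoxia list alone. Overlaps used whole spans, at least 1 base, since exon blocks were not used here; for the same reason no spliced lengths and no sequences are given.

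Genes that reached 1 FPKM in 3 or more input libraries were tested with limma 3.58.1 (R 4.3.3, trend and robust) on log2(FPKM + 1), with Benjamini-Hochberg adjustment and a threshold of 0.05. The script was tested before use on simulated data with 200 changed genes. It recovered 45% of the genes changed by 1 log2 and 83% of those changed by 2 log2, with 7 false among 135 calls. A gene that did not pass may thus still have changed.

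Named genes were, among exonic rows, the 8 highest and 8 lowest differences with adjusted p under 0.05 and at least 1 FPKM in both conditions, the 6 lowest p-values and 5 highest peak counts per list, the longest spans, the 5 largest RNA rises and falls among genes with a differential peak, and members of gene lists. Other genes named (GOLGB1, AHNAK, BPTF, BOD1L1, THAP12, KIF7, MYO18A, RNF214, HK2, EGLN1, BNIP3, HIF1A, KMT2A, KMT2C and CHD7) were chosen after their values were seen. The members and lists were chosen with earlier results of these data known. Alternatives were median-ratio scaling, a pseudocount of 0.1 FPKM, no filter, a replicate block, leaving out each library, and stricter peak and overlap rules. Some results are not reported here.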

Additional observations from a re-analysis of the deposited data

How the results depend on the processing

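The 2699 genes called in input RNA became 1686 after median-ratio scaling, 1112 genes with an exonic peak became 696, and 111 with a differential exonic peak became 51. Leaving out 1 library gave 1009 to 4162, 363 to 1756 and 36 to 141 genes; the lowest counts came without normoxia library 2 and the highest without hypoxia library 3. With a pseudocount of 0.1 FPKM the counts were 2571, 1034 and 107, and with no filter 2863, 1145 and 106. Same-numbered libraries did not all deviate together (correlations of 0.586, 0.0398 and 0.697 for numbers 1, 2 and 3), so the numbers were not read as pairs; a fit with the replicate number as a block called 3463, 1448 and 116 genes. Of 78 named genes tested 28 passed, where 5.40% of all genes tested were higher and 21.1% lower. The 5 largest RNA rises and falls were named among genes that passed, so this count is partly set by the choice. Of the 28, 17 passed under each setting. The other 11 were ALKBH5, CENPB, ELAVL1, FSHR, FTO, IGF1R, IRS1, IRX3, NXF1, PLXNA1 and SMARCA4. The cause of these losses was not tested. Shares of exonic peaks found in both lists were 33.9% and 32.2% (normoxia and hypoxia) with 50% reciprocal overlap, 68.5% and 85.9% with any annotation, 65.6% and 68.5% among peaks with adjusted p under 0.05, and 71.3% and 75.4% in genes with at least 5 FPKM. An adjusted p under 0.05 left 7224 and 7854 exonic peaks, and 5824 and 6980 with at least 2-fold enrichment. Differential exonic rows numbered 72 higher and 35 lower at adjusted p under 0.05, and 28 and 17 at 2-fold. The alternative that set whole spans against exon blocks was not run, since whole spans were used throughout. Depth is unknown, so the limit it sets on weak peaks and low genes cannot be given.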
